A study of Arabidopsis thaliana and Setaria viridis and Zea mays with 22 samples.

Results

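Cluster 5 is 1 of 19 clusters in the deposited joint clustering of single cells and single nuclei from the root tips of 3 grasses. Its members were taken from the authors' cluster column, which assigned it 2786 of the 43212 cells and nuclei analysed here, or 6.45%. It was the sixth largest cluster. It was picked out because it was rare among protoplasts, so its share in protoplasts against nuclei is given below as a description, with no test. The deposited grass table holds a cluster number, a library name, and numbers of transcripts and genes for each cell, but no value for any gene. Marker genes could therefore not be checked here, no tissue name is given, and the cluster keeps its number.

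The study compared root tip cell types among maize, sorghum and Setaria viridis, using isolated nuclei and, in sorghum and Setaria, also protoplasts. The groups were 4 libraries of maize nuclei (strain B73), 3 of sorghum nuclei and 1 of sorghum protoplasts (Btx623), and 2 of Setaria nuclei and 3 of Setaria protoplasts (A10.1). No mutant, transgene or treatment is named for any of these groups. Maize and sorghum seedlings were grown for 7 days and cut 0.5 cm from the root tip, and Setaria seedlings for 15 days and cut 0.2 cm from the tip, although the age label reads 10 days for every sample. The species therefore also differed in age and in the length of root sampled. The labels do not say whether replicate libraries were made from different batches of seedlings. The p-values below therefore reflect library-to-library spread alone, part or all of which could be technical.

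A protoplast is a whole plant cell freed by enzymes that digest its wall, and it carries the RNA of both cytoplasm and nucleus. A nucleus is released by breaking the tissue open, needs no wall digestion, and carries mainly nuclear RNA. In both cases a droplet barcode marks the cell, each captured transcript is tagged with a unique molecular identifier (UMI), and cells with like transcript profiles are then placed in the same numbered cluster. A root tip holds meristem, root cap, epidermis, cortex, endodermis and vascular cells, whose walls differ in thickness and composition.

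The libraries differed in depth. They held 113 to 8551 cells and from 536441 to 175885808 UMIs. The median cell held 1166.5 to 4121.5 UMIs in the nuclei libraries, and 3593 to 22643.5 in the protoplast libraries. The lowest UMI number kept also differed, from 650 in a sorghum nuclei library to 2735 in the sorghum protoplasts. Several libraries stood apart. Maize nuclei replicate 1 held 113 nuclei. One Setaria protoplast library, named Set_Cells and without a replicate number in the table, had a median of 3593 UMIs, against 19938 and 22643.5 in replicates 2 and 3. Of 42983 distinct barcodes, 229 occurred in more than 1 library, and none of these had the same UMI number in its libraries. Cluster 5 held 27 of the 229 in at least 1 library and 1 of them in all of its libraries. The labels give droplet chemistry version 2 for maize nuclei and sorghum protoplasts and version 3 for sorghum and Setaria nuclei. Of the Setaria protoplasts they give version 2 for replicate 1, which is the number left for Set_Cells, and version 3 for replicates 2 and 3. By these labels, chemistry version cannot be told apart from species in comparisons with maize, or from preparation in sorghum. The barcodes did not follow the labels. Per 1000000 pairs of cells, sorghum and Setaria nuclei shared 0.283 barcodes among themselves, and maize nuclei shared 0.330 and sorghum protoplasts 0.363 with them, whereas Set_Cells shared 0 with any of these. The labelled version of maize nuclei and sorghum protoplasts is therefore in doubt.

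Most of cluster 5 came from nuclei. Nuclei made up 2628 of its 2786 members, or 94.3%, whereas they made up 67.3% of all cells. Setaria nuclei alone gave 61.9% of the cluster, sorghum nuclei 25.0% and maize nuclei 7.39%. The remaining 158 members were protoplasts, of which 142 came from Setaria and 16 from sorghum.

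Among nuclei, cluster 5 was found in all 9 libraries, and its share varied by a wide margin between libraries of the same species. In maize nuclei it held 2.65%, 4.36%, 9.48% and 5.67% of replicates 1 to 4, with 3, 43, 89 and 71 nuclei. Replicate 3 was the highest, and the Wilson 95% interval of replicate 1 ran from 0.907% to 7.52%, which covers the shares of replicates 2 and 4. In sorghum nuclei it held 5.44% of the library Sorgh_Nucl, 5.85% of Sorgh_Nucl1 and 12.4% of Sorgh_Nucl2, with 209, 220 and 268 nuclei. The first pair had overlapping intervals (4.76% to 6.20% and 5.14% to 6.64%), while Sorgh_Nucl2 lay apart at 11.0% to 13.8%. In Setaria nuclei the replicates lay close together, at 11.0% and 10.6%, with 818 and 907 nuclei. These intervals, here and below, cover counting error only.

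The high library within a species was not high in cluster 5 alone. In maize replicate 3 the cluster's share was 2.24 times the mean of the other 3 replicates, 4.23%. Cluster 3, singled out after its values were seen, had the larger ratio, 2.71, in the same library. In Sorgh_Nucl2 the share of cluster 5 was 2.19 times the mean of the other sorghum nuclei libraries, 5.64%, and cluster 18 had the larger ratio of 2.22. In each of these libraries cluster 5 had the next largest ratio among the 19 clusters.

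The mean share of cluster 5 rose in value from maize nuclei, at 5.54% ± 2.90 (SD, n = 4), through sorghum nuclei, at 7.88% ± 3.88 (SD, n = 3), to Setaria nuclei, at 10.8% ± 0.263 (SD, n = 2). No difference between neighbours in that order passed the test, whose spread was estimated over all 13 libraries, protoplasts included. By edgeR's quasi-likelihood test with Benjamini-Hochberg adjustment over the 19 clusters, sorghum exceeded maize by 0.41 on the log2 scale (SE 0.45, adjusted p = 0.720). Setaria exceeded sorghum by 0.46 (SE 0.51, adjusted p = 0.877) and maize by 0.87 (SE 0.49, adjusted p = 0.474). With only nuclei libraries fitted, the SEs in the same order were 0.36, 0.40 and 0.39. None of the 3 passed the edgeR test in that fit either (adjusted p = 0.537, 0.618 and 0.175). Both Setaria replicates lay above all 4 maize replicates, which was the case, in either direction, for 36.8% of clusters in that comparison, while Sorgh_Nucl2 lay above both Setaria replicates. The edgeR test called 0% of clusters in each of the 3 comparisons at an adjusted p under 0.05. At an unadjusted p under 0.05 it called 1 cluster between Setaria and maize and 0 in the others, and DESeq2 also made 0 adjusted calls in each. Without Sorgh_Nucl2 the difference between sorghum and maize turned to -0.07, and without maize replicate 3 it was 0.77, neither of which passed the threshold.

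**Figure D1:**
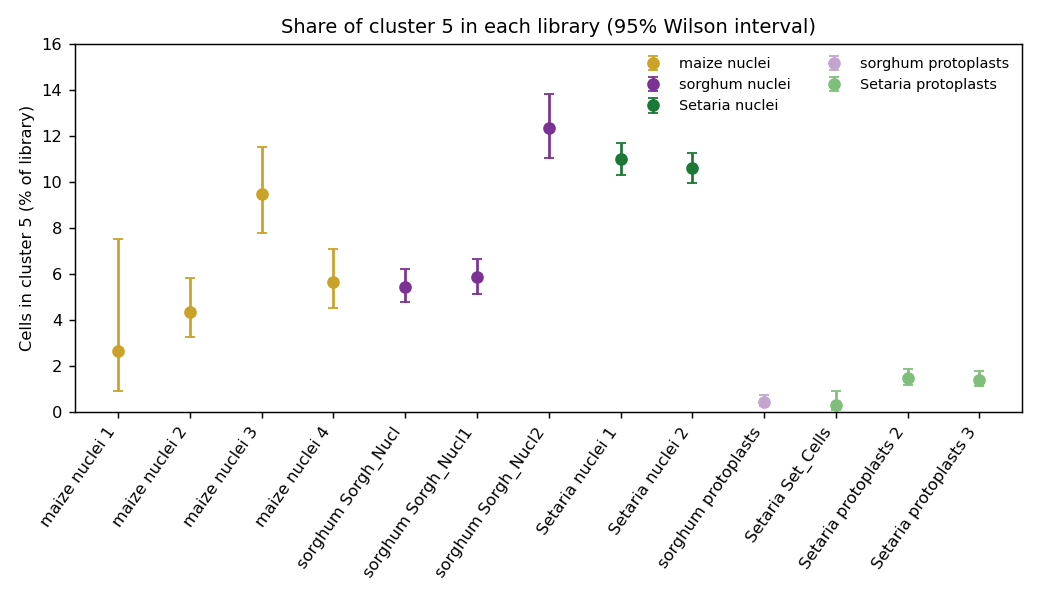
Share of cluster 5 among the cells of each of the 13 libraries, in percent, with points for libraries and bars for Wilson 95% intervals, by species and preparation. All 9 nuclei libraries lie between 2.65% and 12.4%, and all 4 protoplast libraries lie between 0.306% and 1.48%.

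Among protoplasts, cluster 5 was rare in every library. It held 0.306% of the Setaria library Set_Cells (3 of 981 cells), 1.48% of replicate 2 (67 of 4513) and 1.40% of replicate 3 (72 of 5126). In the single sorghum protoplast library it held 0.454% (16 of 3524). The Wilson intervals of Setaria replicates 2 and 3 overlapped, from 1.17% to 1.88% and from 1.12% to 1.77%, and that of Set_Cells lay below both, from 0.104% to 0.895%. In these 4 libraries cluster 5 was the smallest or next to smallest of the 19 clusters, whereas in the sorghum and Setaria nuclei it ranked between first and seventh.

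In Setaria the mean share was 1.07% ± 0.659 (SD, n = 3) in protoplasts and 10.8% ± 0.263 (SD, n = 2) in nuclei, a ratio of 10.1, and single library pairs gave ratios from 7.14 to 35.9. In sorghum the shares of 0.454% and 7.88% gave a ratio of 17.4, and library pairs gave 12.0 to 27.2. The protoplast libraries lay below all nuclei libraries of the same species in both cases, as they did for 26.3% of clusters in Setaria and 31.6% in sorghum. On the log2 scale of the edgeR model the differences were -3.22 (SE 0.54) in Setaria and -4.10 (SE 0.88) in sorghum. Without Set_Cells the Setaria difference was -2.90, and without Sorgh_Nucl2 the sorghum difference was -3.62. The sorghum value rests on 1 protoplast library, which was assumed to vary like the other groups. Its labelled chemistry, in doubt as said above, differs from that of sorghum nuclei. The Setaria mean likewise takes in Set_Cells, whose likely label is version 2, with replicates of version 3.

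Cluster 2 was the cluster most like it in this respect. Its nuclei to protoplast ratio was 10.8 in Setaria and 29.8 in sorghum, and the next ratio after these 2 clusters was that of cluster 13, at 2.39 and 5.14. In nuclei, cluster 2 varied less between libraries, from 9.03% to 13.8%, than did cluster 5. The ratio of cluster 5 cells to cluster 2 cells was 0.25, 0.355, 0.685 and 0.628 in maize replicates 1 to 4, and 0.448, 0.440 and 0.982 in the sorghum nuclei libraries. It was 1.20 and 0.845 in Setaria nuclei. In protoplasts it was 1.07 in sorghum, and 0.176, 1.63 and 3.79 in the Setaria library Set_Cells and replicates 2 and 3. Which of the clusters was the more abundant thus changed from library to library, and their difference was not tested.

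Because the libraries differed in UMIs per cell, the share of cluster 5 was also taken within ranges of UMIs, which match depth only in part. The median cell between 2000 and 4000 UMIs held 2425 and 2505 UMIs in the nuclei libraries of Setaria and 2874 to 3178 in its protoplast libraries, and 2248 to 2561.5 in sorghum nuclei and 3595.5 in sorghum protoplasts. Among cells of 2000 to 4000 UMIs it was 12.0% and 11.4% in Setaria nuclei, and 0.394%, 3.37% and 6.36% in the Setaria protoplast library Set_Cells and replicates 2 and 3. In replicate 3 this was 28 of 440 cells, with a Wilson interval of 4.44% to 9.04%. The protoplast libraries still lay below the nuclei libraries, but the difference was -1.81 on the log2 scale (SE 0.64), against -3.22 over all cells. In sorghum the share in this range was 2.29% in protoplasts (6 of 262 cells, 1.05% to 4.91%), and 4.53%, 5.21% and 9.39% in the nuclei libraries. That difference was -1.47 (SE 1.03), against -4.10 over all cells.

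From 4000 to 8000 UMIs the share was 12.1% and 8.99% in Setaria nuclei, and 0.317%, 1.83% and 3.53% in the 3 Setaria protoplast libraries in the same order. In sorghum it was 0.411% in protoplasts and 0.990%, 5.39% and 6.11% in nuclei. At 16000 UMIs or more, cluster 5 held 0.860% and 0.419% of Setaria protoplast replicates 2 and 3, and 0 of 1065 sorghum protoplasts, which allows a share of up to 0.282% (3 cells of the total). Between these, at 8000 to 16000 UMIs, it held 2.12% of replicate 2 and 0.685% of replicate 3. In replicate 3 the share thus declined in value from each range to the next, in replicate 2 it was lowest in the deepest range, and in Set_Cells it was low in the shallower ranges as well.

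**Figure D2:**
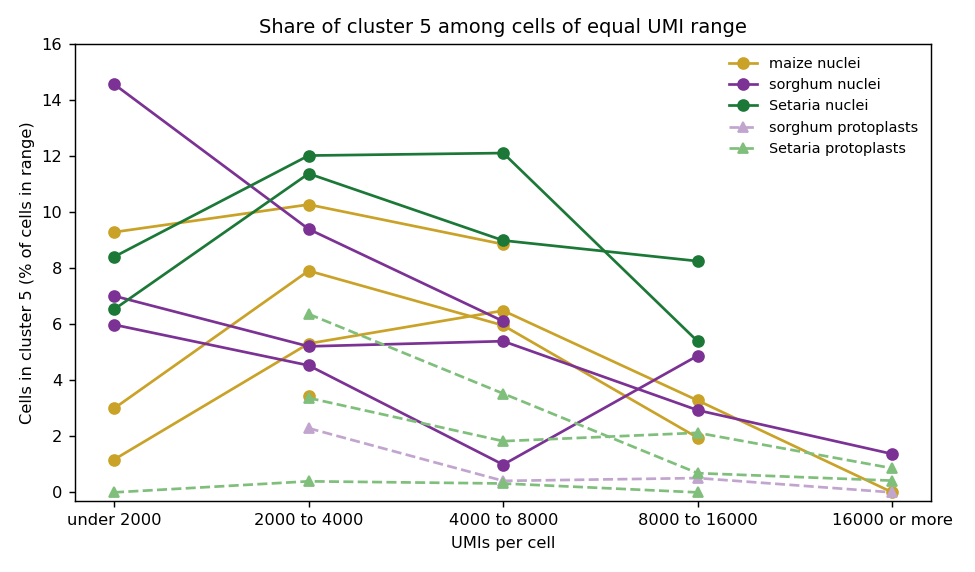
Share of cluster 5 among cells within ranges of UMIs per cell, in percent, for each library with at least 50 cells in the range, with nuclei as circles on solid lines and protoplasts as triangles on dashed lines. In the range of 2000 to 4000 UMIs the Setaria nuclei lie at 12.0% and 11.4% and the Setaria protoplasts at 0.394%, 3.37% and 6.36%.

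In 3 of the 4 protoplast libraries, cluster 5 lay mostly in the low part of the library's depth. Each library was divided by UMIs into 4 parts of like size, and the share of cluster 5 was taken in each. In Setaria protoplast replicate 3 it was 4.22% in the part of lowest UMIs and 0.624%, 0.468% and 0.312% in the following ones. That lowest part held 54 of its 72 cluster 5 cells, or 75.0%. Replicate 2 declined more evenly, from 2.48% through 2.04% and 1.06% to 0.354%. The sorghum protoplasts went from 0.795% through 0.568% and 0.454% to 0 of 881 cells in the highest part, which allows a share of up to 0.341%. The 3 cluster 5 cells of Set_Cells showed no such course, with 0, 2, 0 and 1 of them from the lowest to the highest part.

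In nuclei the course over the 4 parts differed between species. In Setaria nuclei the lowest part had the lowest share, with 8.54%, 10.4%, 13.2% and 11.8% over the parts of replicate 1, and 7.58%, 11.2%, 12.9% and 10.8% in replicate 2. In the sorghum nuclei the highest part had the lowest share in each library, as in Sorgh_Nucl2, with 14.0%, 16.1%, 10.9% and 8.47%. Maize replicates 2, 3 and 4 had their highest share in a middle part.

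Medians of the same UMI numbers describe this pattern in another form and are no separate evidence. In nuclei, the median cluster 5 nucleus held close to as many UMIs as the other nuclei of its library. It held 2404.5 against 2295 UMIs in Setaria nuclei replicate 1, and 2634 against 2542 in replicate 2. In sorghum it held 1053 against 1176 UMIs in Sorgh_Nucl, 1713.5 against 1951.5 in Sorgh_Nucl1 and 1803.5 against 1867 in Sorgh_Nucl2. In maize the medians were 3179 against 3424, 4093 against 3903, 2437 against 2624 and 3737 against 4139 UMIs in replicates 1 to 4. Over these 9 libraries the ratio of the medians ran from 0.878 to 1.05.

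In protoplasts the ratio was lower in 3 of the 4 libraries. The median cluster 5 cell held 10840 UMIs against 20235.5 in the other cells of Setaria replicate 2, a ratio of 0.536. In replicate 3 it held 4872 against 23169 UMIs, a ratio of 0.210. In sorghum protoplasts it held 5734.5 against 9708, a ratio of 0.591. The 3 cluster 5 cells of Set_Cells had a median of 3295 UMIs against 3593, a ratio of 0.917. Even so, the median cluster 5 protoplast of every library held more UMIs than the median cluster 5 nucleus of the same species. In Setaria replicate 3, cluster 5 made up 1.40% of the cells but 0.499% of the UMIs, whereas in Setaria nuclei replicate 1 it made up 11.0% of both.

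**Figure D3:**
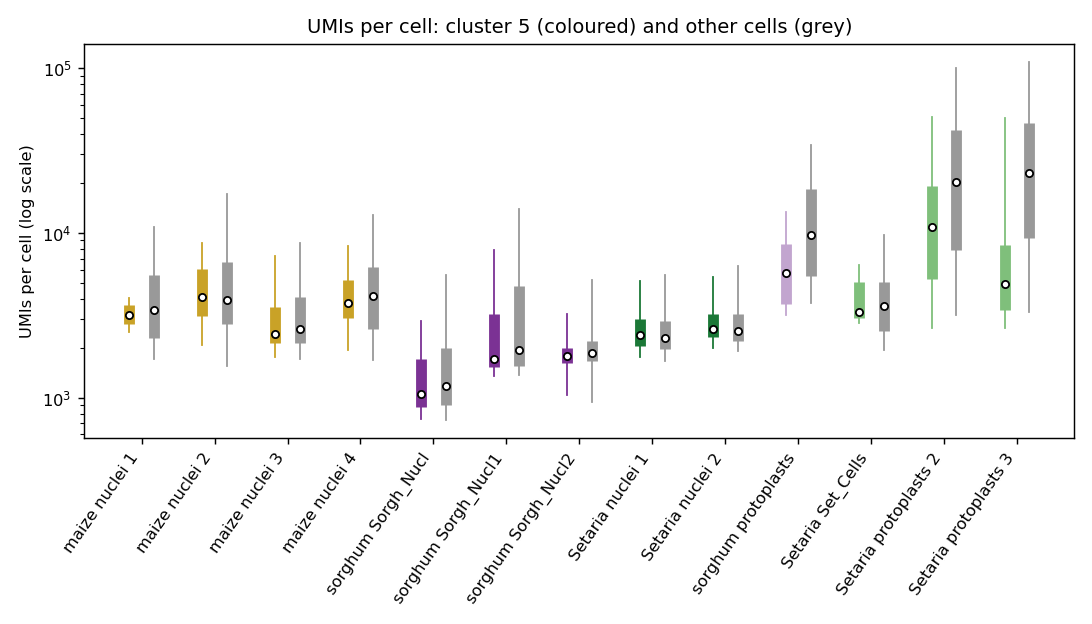
UMIs per cell on a log axis for cluster 5 (coloured) and all other cells (grey) of each library, with the dot at the median, the thick bar over the middle 50% of cells and the thin bar from the 5th to the 95th percentile. In Setaria protoplast replicates 2 and 3 the cluster 5 median, 10840 and 4872 UMIs, lies below that of the other cells, 20235.5 and 23169.

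To set cluster 5 beside the other clusters of the same library, its median log2 UMI number was taken relative to the median over the clusters, which is called relative UMIs here. Clusters with at least 10 cells in a library entered, which leaves out cluster 5 in maize replicate 1 and in Set_Cells. Relative UMIs were 0.06, -0.05 and -0.08 in maize nuclei replicates 2 to 4, and -0.07, -0.29 and -0.04 in Sorgh_Nucl, Sorgh_Nucl1 and Sorgh_Nucl2. They were 0.09 and 0.03 in Setaria nuclei, -0.41 in sorghum protoplasts, and -1.28 and -2.35 in Setaria protoplast replicates 2 and 3. In these 8 nuclei libraries cluster 5 thus lay within 0.29 of the median over clusters, and in both Setaria protoplast libraries it lay over 1 below it. By rank counted from the lowest of 19 clusters, it was number 3 and 2 in Setaria protoplast replicates 2 and 3, and number 6 in sorghum protoplasts. In nuclei it was number 1 in Sorgh_Nucl2, where the value was -0.04, number 5 and 6 in Sorgh_Nucl and Sorgh_Nucl1, and number 13 in both Setaria replicates. In maize nuclei replicates 2 to 4 it was number 12, 6 and 8 of 18.

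Between the nuclei of the 3 species no difference in relative UMIs passed limma's test with Benjamini-Hochberg adjustment. Sorghum minus maize was -0.11 (SE 0.25, adjusted p = 0.753), Setaria minus maize was 0.08 (SE 0.28, adjusted p = 0.863) and Setaria minus sorghum was 0.20 (SE 0.28, adjusted p = 0.979). The test called 0% of clusters in each of these comparisons, and 2, 1 and 0 clusters at an unadjusted p under 0.05. Its spread, too, was estimated with the protoplast libraries included. With nuclei libraries only, an alternative chosen after the data were seen, the SEs were 0.11, 0.12 and 0.12. Cluster 5 did not pass limma's test there either (adjusted p = 0.436, 0.562 and 0.855).

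Between preparations the values are a description, since the cluster was chosen on that contrast. In Setaria the difference of protoplasts minus nuclei was -1.88 (SE 0.30, 2 libraries against 2), which is 3.69-fold lower. Over the same 4 libraries cluster 2 was lower still, at -2.38, and cluster 5 came next among the 19 clusters. Cluster 2 was also the lower of the pair within each Setaria protoplast library, at -2.28 and -2.64 in replicates 2 and 3. In sorghum the difference was -0.27 (SE 0.35, 1 library against 3), which is within its error. The Setaria difference ran from -2.42 without protoplast replicate 2 to -1.35 without protoplast replicate 3.

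**Figure D4:**
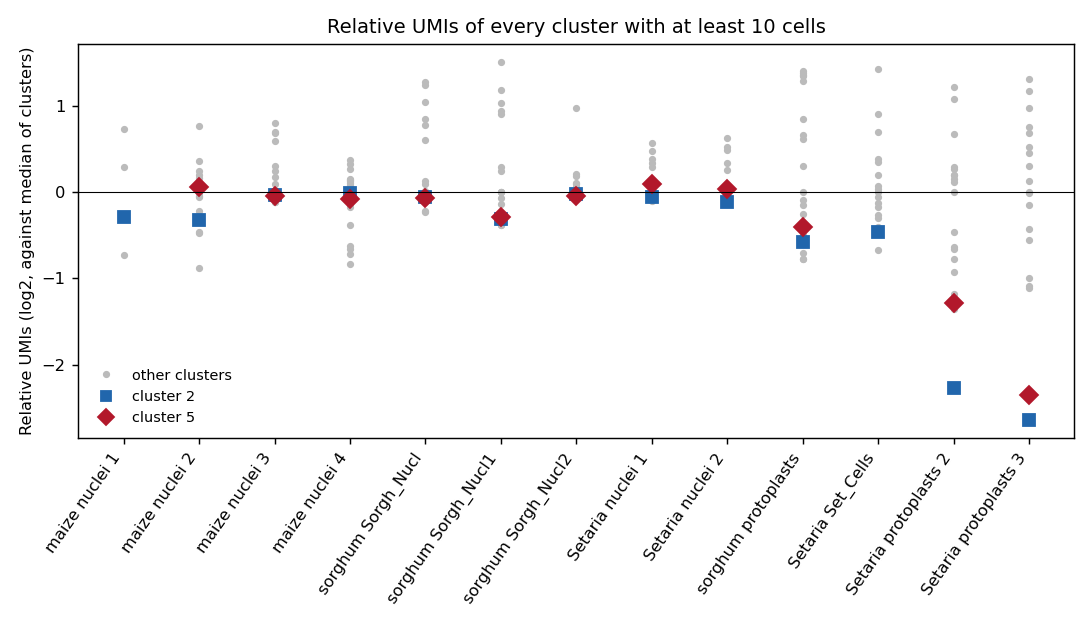
Relative UMIs (log2 of the cluster's median UMIs, minus the median over clusters of the library) for every cluster of at least 10 cells in each library, with cluster 5 as red diamonds, cluster 2 as blue squares and the other clusters in grey. The red diamonds lie from -0.29 to 0.09 in nuclei, at -0.41 in sorghum protoplasts, and at -1.28 and -2.35 in Setaria protoplast replicates 2 and 3.

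Cluster 5 cells were also compared with the rest by how many genes they showed for their depth. A cell with more UMIs shows more genes, so the number of genes was read as a residual from a curve of log2 genes on log2 UMIs, fitted to all cells of the library. A residual above 0 means more genes than cells of the same depth in that library. In nuclei the median residual of cluster 5 was near 0, at 0.01, -0.01 and 0.03 in maize replicates 2 to 4, at 0.01, 0.00 and -0.01 in the sorghum libraries, and at -0.03 in both Setaria replicates. In protoplasts it was 0.11 in sorghum, and 0.15 and 0.11 in Setaria replicates 2 and 3. Each of these 3 protoplast values lay above all 8 nuclei values. Of the 19 clusters, clusters 0, 2, 9, 14 and 18 likewise lay above all their nuclei values in these 3 protoplast libraries.

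Cluster 5 had the highest residual of the 19 clusters in Setaria protoplast replicate 2. Counted from the lowest, it was number 17 in replicate 3 and number 16 in sorghum protoplasts. Cluster 2 had 0.14, 0.19 and 0.05 in these libraries, and so exceeded cluster 5 in replicate 3. The difference of protoplasts minus nuclei was 0.16 (SE 0.02, 2 libraries against 2) in Setaria, where cluster 2 over the same libraries had 0.18 and was the 1 cluster above it. It was 0.11 (SE 0.02, 1 library against 3) in sorghum, with 2 clusters above it, and 0.05 for cluster 2. Both are given as a description of the contrast on which the cluster was chosen. In the same libraries the deposited gene numbers corrected for depth gave the other direction. By that column the median cluster 5 cell had 3957 genes against 4623.5 in the other cells of Setaria replicate 2, 3939.5 against 4872.5 in replicate 3, and 2373 against 3037.5 in sorghum protoplasts. The corrected UMI numbers of cluster 5 still lay below those of the other cells, at ratios of 0.954, 0.860 and 0.926 in the same order. The sign of the gene difference depends on how depth is taken into account, and the corrected numbers did not make depth equal.

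Within ranges of UMIs, where depth is matched more closely, the residual of cluster 5 protoplasts exceeded that of the other cells in every range compared. In Setaria replicate 2 cluster 5 had 4.47%, 6.34%, 8.99% and 15.3% more genes for its depth at 2000 to 4000, 4000 to 8000, 8000 to 16000, and 16000 or more UMIs, from 15, 13, 17 and 22 cells. In replicate 3 the values were 4.22%, 5.67%, 10.4% and 13.4%, from 28, 25, 6 and 13 cells. In sorghum protoplasts they were 1.50%, 3.71% and 8.29% in the first 3 of these ranges, from 6, 5 and 5 cells. The excess was larger in the deeper ranges of all 3 libraries, although the counts of cells were small.

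The uncorrected numbers of genes in these ranges were mixed, since the median UMIs of cluster 5 and of the other cells still differed within a range. In Setaria replicate 3, cluster 5 cells at 4000 to 8000 UMIs had a median of 2552 genes at 5276 UMIs, and the other cells 2469 genes at 5698.5 UMIs. At 16000 or more UMIs the medians were 7313 genes at 33098 UMIs in cluster 5 and 6621.5 genes at 39431 UMIs in the other cells. In replicate 2, by contrast, cluster 5 had 1675 genes at 3025 UMIs against 1745.5 at 3192.5 in the range of 2000 to 4000 UMIs, and 6375.5 genes at 25133 UMIs against 6696 at 38100 in the deepest range. In sorghum protoplasts at 2000 to 4000 UMIs it had 1743 genes at 3357 UMIs against 1770 at 3596.5. Setaria nuclei of cluster 5 had 2.53% fewer genes for their depth in replicate 1 and 2.10% fewer in replicate 2, at 2000 to 4000 UMIs, from 565 and 757 nuclei. At 8000 to 16000 UMIs the values were -2.15% and 0.120%, from 7 and 17 nuclei.

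Between the nuclei of the 3 species no gene residual difference passed limma's test in the fit of nuclei and protoplast libraries together. Sorghum minus maize was -0.01 (SE 0.02, adjusted p = 0.979), Setaria minus sorghum was -0.03 (SE 0.02, adjusted p = 0.829) and Setaria minus maize was -0.04 (SE 0.02, adjusted p = 0.315). The test called 0% of clusters in each, and 0, 0 and 2 at an unadjusted p under 0.05. The Setaria to maize difference passed when only nuclei libraries were fitted, at -0.04 with an adjusted p of 0.0216 by limma, an alternative chosen after the data were seen in which 22.2% of clusters passed. From uncorrected gene numbers at 2000 to 4000 UMIs it was -0.0018 (adjusted p = 0.975 by limma).

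**Figure D5:**
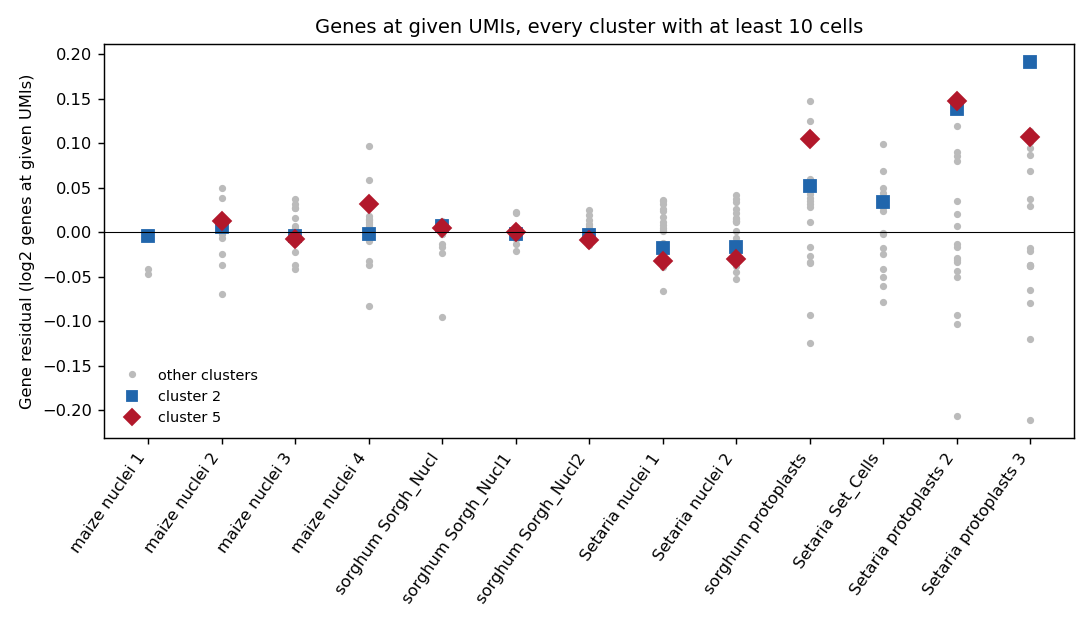
Median gene residual (log2 genes, given UMIs, from a curve fitted to all cells of the library) of every cluster of at least 10 cells in each library, with cluster 5 as red diamonds, cluster 2 as blue squares and the other clusters in grey. Cluster 5 lies from -0.03 to 0.03 in the 8 nuclei libraries shown with it and from 0.11 to 0.15 in 3 protoplast libraries.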

How the data were processed

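The deposited table lists each cell's library, cluster and number of UMIs and genes, which are raw counts. It also holds depth-corrected UMI and gene numbers, a score per cell made with SCTransform, per the file headers. Reads were processed with Cell Ranger 5.0.1 and Seurat 4.0, per the submitters' processing notes. The cluster column deposited by the authors names a resolution of 0.6. Not given in the sources used here were the filters on cells, any removal of doublets, and the builds of the grass genomes. No doublets were removed here. In the same table, 3 maize protoplast libraries of 4324 cells belong to no sample of this series and were not used.

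Groups come from the labels. The 3 sorghum nuclei libraries and the Setaria library Set_Cells matched a group but no replicate number, so their table names are used.

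Cells per cluster and library were tested with edgeR 4.0.16 (quasi-likelihood, library size set to all cells), with all 13 libraries in 1 fit of 5 groups. Relative UMIs and gene residuals (a quadratic per library) were tested with limma 3.58.1 (robust) on clusters of at least 10 cells. Benjamini-Hochberg adjustment ran over the clusters of a comparison. An edgeR SE is the log2 difference divided by the square root of F. The design also planned tests of relative UMIs and residuals between preparations. Since the cluster was chosen on that contrast, the values are given with their SE and no p. Scripts were tested on simulated data. The cluster and the comparisons were chosen with earlier results of these data known. No gene is named. Clusters are named by number: cluster 5, cluster 2 as the most like it, and those next to cluster 5 in rank or sharing a stated order. Alternatives covered DESeq2 1.42.0, scaling, depth ranges, minimum cells and leaving out each library. R was 4.3.3 and Python 3.11.15.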

Additional observations from a re-analysis of the deposited data

Results flagged for a closer look

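One value was flagged by a limma threshold on a difference between species. The flag is no test result, for the reasons given with the value. The change in relative UMIs of cluster 5 from nuclei to protoplasts was larger in Setaria than in sorghum. The effect in Setaria minus that in sorghum was -1.61 on the log2 scale (SE 0.46). It is given with no p, because it rests on 1 sorghum protoplast library with 16 cluster 5 cells, on the contrast that chose the cluster, and on a comparison set up after the values were seen. Under 9 alternatives it ran from -2.14, without Setaria protoplast replicate 2, to -0.97, relative to all cells of the library. It was -1.07 without Setaria protoplast replicate 3, and -1.03 with clusters of at least 3 cells, which brings in Set_Cells. The limma threshold was missed in 5 of the 9, namely relative to all cells, with at least 3 cells, without Setaria nuclei replicate 1, without Setaria nuclei replicate 2 and without Sorgh_Nucl1. Whether the species differ in this respect is thus not shown. The labelled chemistry of the sorghum protoplasts differs from that of Setaria replicates 2 and 3, but the shared barcodes go against that label.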

How the results depend on the processing

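Of 295 values recomputed for 15 results, 275 kept their direction, their side of the threshold and, for shares between preparations, their size. The count uses the limma threshold between preparations too, for relative UMIs and residuals, although no test is read from that contrast. Some of the 275 could not have changed. Leaving out a library outside a comparison left its limma difference as it was, and setting no minimum of cells changed nothing. The exact permutation test could not pass for either Setaria comparison of nuclei, given so few libraries. For the share, sorghum minus maize nuclei turned to -0.25 among cells of at least 2735 UMIs, the highest library minimum, and to -0.19 at 2000 to 4000 UMIs, and ran from -0.066 to 0.774 when each library was left out. Protoplasts minus nuclei moved to -1.81 in Setaria and -1.47 in sorghum at 2000 to 4000 UMIs, and to -3.42 in sorghum at 2735 or more. For relative UMIs, Setaria protoplasts minus nuclei was -1.30 with clusters of at least 3 cells and -1.56 with a replicate block, against -1.88. No test is read from this contrast, on which the cluster was chosen. Under the replicate block Setaria minus maize nuclei turned to -0.27. For the gene residual, Setaria minus maize was -0.044 and passed both with array weights (adjusted p = 0.0470 by limma) and with nuclei libraries only. It also passed without Set_Cells, and ran from -0.054 to -0.034 when each library was left out. In these 3 fits, in the order given, 3, 4 and 4 of 18 clusters passed. The sorghum protoplast difference was 0.106 with clusters of at least 3 cells and 0.103 at 2735 or more UMIs, close to the 0.11 reported. The depth-corrected gene numbers, an alternative chosen after seeing the data, reversed Setaria minus maize to 0.009, Setaria minus sorghum to 0.069, Setaria protoplasts minus nuclei to -0.263 and sorghum protoplasts minus nuclei to -0.173. Uncorrected gene numbers at 2000 to 4000 UMIs reversed Setaria minus sorghum to 0.043 and Setaria protoplasts minus nuclei to -0.019, and brought Setaria minus maize to -0.0018. The cause was not tested.

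The replicate block used maize and Setaria libraries only, as sorghum nuclei carry no number in the table. Deviations of same-numbered nuclei correlated at 0.101 and -0.064 for numbers 1 and 2. The deviations of the 2 Setaria nuclei libraries mirror each other, so these values cannot show whether same-numbered samples share a batch. With at least 20 cells per cluster, and for uncorrected genes at 2000 to 4000 UMIs, sorghum protoplasts gave no value. Precision is limited by the 3 cluster 5 cells of maize replicate 1 and of Set_Cells and by the 16 of the sorghum protoplasts.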
